A study of Mus musculus with 2 samples.

Results

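The interleukins, the tumour necrosis factor (TNF) superfamily and the receptors of both were examined in mouse macrophages (iMac) that were obtained, by the title of the series, from fibroblasts with c-Myc as the single factor. The members are all rows of the count table whose symbol is Il followed by a digit, or begins with Tnfsf or Tnfrsf, or is Tnf, Lta, Ltb, Ltbr or Cd27, which gave 89 of 20034 rows. The rule rests on gene names and on no measured value, although it was chosen with earlier results of these data known. The labels give 2 libraries, cDNA and oligo, each of wild type induced macrophages prepared with the DNBelab C4 droplet system, and no untreated group, starting fibroblast or time point was analysed here. The barcode names carry no library, so the 1 matrix was treated as 1 sample without a replicate. Whether the cDNA and oligo libraries hold separate cells was not examined, and no comparison between them was made. No test was possible, and every interval below is a 95% interval that covers counting error only.

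Of 6837 barcodes, all with distinct names, 6751 were kept, those with 500 or more genes and no more than 15% of counts from mitochondrial genes. They held 160363508 counts, from 1001 to 192369 per cell with a median of 17178. The labelled cell type was checked against marker lists. All 20 macrophage markers reached 10 counts per 1000000 counts (CPM), while 0 of the 6 fibroblast markers with a row and 0 of the 7 T and NK cell markers with a row did. The T and NK markers summed to 1.55 CPM and the mast cell and basophil markers to 0.0935 CPM. Of 8 monocyte markers 5 reached it, among them F13a1 (40.6 CPM), Hp (37.4 CPM) and Ly6c2 (35.6 CPM). Ighm (66.6 CPM) was the only B and plasma cell marker to reach it, and the granule protease Prtn3 (96.3 CPM) the only neutrophil marker. Pf4 (253 CPM) alone did so among erythroid and megakaryocyte markers. Among the 7 markers of osteoclasts with a row, a single gene passed, Nfatc1 at 13.2 CPM. None of the 7 dendritic cell or 6 endothelial markers with a row reached 10 CPM. All 20 S phase markers and all 20 G2 and M phase markers did. No group of cells known to lack the members was present, so the share of counts from free RNA was not estimated.

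Interleukins and TNF superfamily proteins are signals between cells. Most interleukin receptors are built from several chains, a private chain that binds the ligand and a shared chain that passes the signal to JAK kinases and STAT factors, whereas receptors of the IL-1 family use the adaptor MyD88, and TNF receptors recruit TRAF proteins or death domain adaptors that lead to NF-kB or to cell death. Macrophages both make and answer these signals.

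Receptor transcripts made up most of what was counted, 80.3% of the members' counts. At least 10 CPM, the level called expressed here, was reached by 17 of the 89 members (19.1%), beside 33.2% of all rows. Of these 17, 7 were among the 30 interleukin receptor genes and 7 among the 18 TNF receptor genes, whereas 2 were among the 18 interleukin ligands and 1 among the 13 TNF ligands. None of the 7 decoy receptors and antagonists reached it, nor did any of the 3 genes that belong by name alone (Il4i1, Il1bos and Tnfsf13os). A further 26 members lay between 1 and 10 CPM and 46 below 1 CPM, among them 10 with a single count. Over all 20034 rows, 4286 lay between 1 and 10 CPM and 9092 below 1 CPM, among them 1779 with a single count. The median was 3.67 CPM for interleukin receptors and 0.143 CPM for interleukin ligands, beside 2.03 CPM over all rows. Together the members took 0.0522% of all counts.

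**Figure D1:**
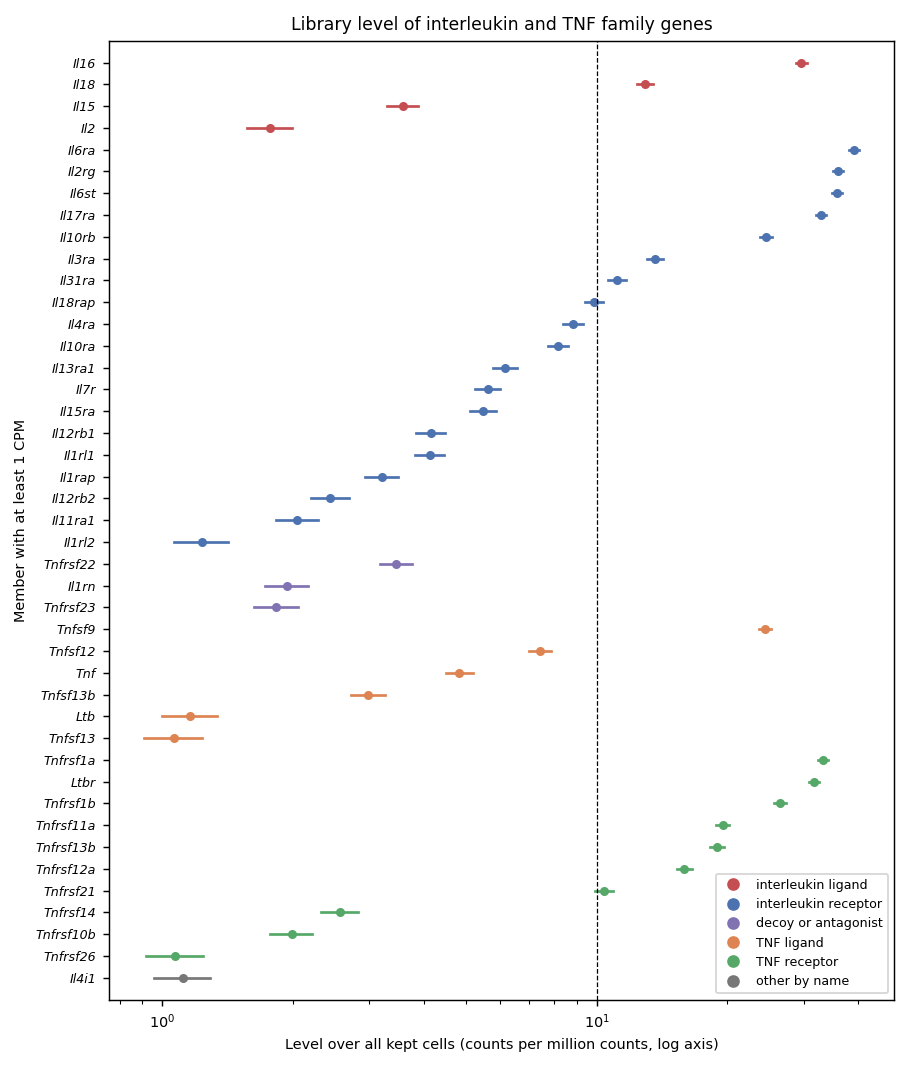
Levels of the members with at least 1 CPM, in CPM over all kept cells on a log axis, with exact 95% Poisson intervals as bars, coloured by role and with a dashed line at 10 CPM. The blue and green points of the receptors fill most of the range above the line, where only Il16, Il18 and Tnfsf9 are ligands.

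The receptor for IL-6 was the interleukin receptor with the most counts. Il6ra, which encodes the chain that binds IL-6, stood at 39.1 CPM (38.1 to 40.1) and was counted in 43.2% of cells, and Il6st, which encodes the shared signalling chain gp130, at 35.75 CPM (34.8 to 36.7) and 40.3%. Their ligand gene Il6 had 1 count in all cells. The gp130 partners Il11ra1 (2.05 CPM) and Il27ra (2 counts) were low, and Il31ra, the chain for IL-31, was at 11.1 CPM (10.6 to 11.7) although its partner Osmr and its ligand Il31 had no row.

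The common gamma chain gene Il2rg was at 35.9 CPM (35.0 to 36.8) and 39.7% of cells. Its private partners were lower, with Il4ra at 8.83 CPM, Il7r at 5.62 CPM, Il15ra at 5.48 CPM and Il21r at 0.518 CPM, while Il2ra and Il2rb had no row. The ligand Il15, presented by its receptor on the cell surface, was at 3.58 CPM (3.29 to 3.88), Il4 had 9 counts and Il7 had 6. Il13ra1, which joins Il4ra to bind IL-4 and IL-13, was at 6.15 CPM. Il3ra, the IL-3 chain, was at 13.7 CPM (13.1 to 14.2) and its signalling partner Csf2rb, outside the naming rule, at 82.7 CPM. Csf2rb has a near-identical neighbour, Csf2rb2 at 4.54 CPM, between which counts could have been split.

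Several receptors were represented by one chain far more than by the other. Il17ra, the shared chain for IL-17 cytokines, was at 32.8 CPM (31.9 to 33.7), but Il17rc was at 0.337 CPM, Il17rb and Il17re had 3 counts each, and of the ligands Il17c had 23 counts and Il17d 26. Il18rap, the accessory chain for IL-18, was at 9.87 CPM (9.38 to 10.4), just under the threshold, while the binding chain Il18r1 had 1 count. IL-18 itself, encoded by Il18, was at 12.9 CPM (12.4 to 13.5) and found in 21.03% of cells. In the IL-1 branch Il1rap, the shared accessory chain, was at 3.21 CPM, the IL-33 receptor Il1rl1 at 4.14 CPM and the IL-1 receptor Il1r1 at 0.393 CPM. The ligands Il1a and Il1b had 1 count each and Il33 had 23. For IL-10 both chains were counted, Il10rb at 24.5 CPM (23.7 to 25.3) and Il10ra at 8.15 CPM (7.71 to 8.60), beside 41 counts of Il10. The IL-12 chains Il12rb1 and Il12rb2 were at 4.16 and 2.44 CPM, while Il12a, Il12b and Il23r had no row.

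Il16, a chemoattractant released from a larger precursor, was the interleukin ligand with the most counts, at 29.6 CPM (28.7 to 30.4) and 31.8% of cells. Its gene overlaps Stard5 on the other strand. As the strand used in counting is not given in the sources used here, reads of such neighbours cannot be told apart, which also concerns Il18 (Bco2 and Tex12), among others. Il2rg and Il10rb each overlap a protein-coding gene on the same strand, Gm20489 and Gm21970, where knowing the strand would not help. Il2, a growth factor of T cells, had 284 counts in 279 cells and never more than 2 in a cell. It overlaps Adad1 on the other strand, and Lck, the T and NK cell marker with the most counts, was at 1.34 CPM.

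Among TNF receptors the 2 receptors for TNF and the receptor for lymphotoxin led. Tnfrsf1a, the widely used receptor with a death domain, was at 33.1 CPM (32.2 to 34.0) and 42.6% of cells, Ltbr at 31.6 CPM (30.8 to 32.5) and 41.3%, and Tnfrsf1b, the receptor without a death domain, at 26.4 CPM (25.6 to 27.2) and 36.0%. Their ligands were lower. Tnf was at 4.83 CPM (4.50 to 5.19) with 775 counts in 556 cells, Ltb at 1.16 CPM, Tnfsf14 at 0.611 CPM and Lta at 0.224 CPM. Tnfrsf11a, which encodes RANK, the receptor through which macrophages become osteoclasts, was at 19.5 CPM (18.8 to 20.2), whereas its ligand Tnfsf11 and the decoy Tnfrsf11b had no row. Tnfrsf13b, which encodes TACI and is known mainly from B cells, was at 18.9 CPM (18.2 to 19.6), its ligands Tnfsf13b (BAFF) at 2.99 CPM and Tnfsf13 (APRIL) at 1.07 CPM, and the related receptors Tnfrsf17 and Tnfrsf13c at 0.505 and 0.0935 CPM. Tnfrsf12a, the receptor for TWEAK, was at 15.9 CPM (15.3 to 16.5), beside its ligand Tnfsf12 at 7.41 CPM (6.99 to 7.84). The death receptor Tnfrsf21 was at 10.4 CPM (9.91 to 10.9) and Tnfrsf10b, the receptor for TRAIL, at 1.99 CPM.

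One TNF ligand was counted as often as the receptors. Tnfsf9, which encodes 4-1BBL, a costimulator of T cells, was at 24.4 CPM (23.6 to 25.2) and 30.6% of cells, while its receptor Tnfrsf9 had 18 counts. The remaining TNF ligands below 1 CPM were Tnfsf10 (TRAIL) at 0.387 CPM, Tnfsf8 at 0.318 CPM and Tnfsf4, Tnfsf18 and Tnfsf15 with 4, 2 and 1 counts. Of the decoys and antagonists, the decoy TRAIL receptor genes Tnfrsf22 and Tnfrsf23 were at 3.45 and 1.83 CPM, and as close copies they may have shared reads. Il1rn, the IL-1 receptor antagonist, was at 1.94 CPM (1.73 to 2.17), the decoy Il1r2 at 0.680 CPM and Il18bp at 0.156 CPM.

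An annotation of the mouse genome (GENCODE M21, build GRCm38) holds 121 symbols that meet the naming rule, of which 32, all protein coding, had no row. They include the ligands Il3, Il5, Il9, Il13, Il17a, Il21, Il31 and Tnfsf11. Such a gene was left without a value, since a missing row is not a count of 0. Divided by the length of their exons, the order of members changed. Tnfsf9 came first at 18.9 CPM per kb, followed by Il2rg (15.03), Ltbr (13.4), Tnfrsf1a (12.8) and Il18 (12.6), all in CPM per kb, while Il6ra, with its long transcript, became the 12th at 4.52 CPM per kb and Il6st the 16th at 3.22. How reads were spread along transcripts is not given in the sources used here, and where only transcript ends are read the order without division applies. After each cell was thinned to 10000 counts, which 4312 cells allowed, a count was found for Il6ra in 30.5% of cells (29.2 to 31.9), for Ltbr in 27.4%, for Il6st in 27.1%, for Il2rg in 26.8% and for Tnfrsf1a in 26.8%. The intervals of the last 4 overlap. In all, 22 of the 89 members were counted in at least 5% of cells at this depth, beside 40.7% of all rows.

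Promoters were read for the members that the results turn on, as the cells were made with c-Myc, whose partner complex with Max binds the E-box CACGTG, and as macrophage genes are known for PU.1 sites. The 250 bases before the transcription start are given in lower case from RefSeq (GRCm38.p6), read on the gene's own strand, with the motif found by search in capitals. Il6ra (chr3:89913197-89913446, minus strand) and Ltbr (chr6:125313886-125314135, minus strand) are shown as the members at 10 CPM or more that hold CACGTG, which begins 24 and 125 bases before the start. Il18rap (chr1:40515112-40515361, plus strand) is shown as the member of the IL-1 receptor cluster with the most counts, with the PU.1 motif GAGGAAGT 79 bases before the start. Il1rn (chr2:24336610-24336859, plus strand) is shown for its uneven counts across cells described further on, with the AP-1 motif TGANTCA 141 bases before the start, and the last 7 bases of its window are transcribed in GENCODE M21.
Il6ra: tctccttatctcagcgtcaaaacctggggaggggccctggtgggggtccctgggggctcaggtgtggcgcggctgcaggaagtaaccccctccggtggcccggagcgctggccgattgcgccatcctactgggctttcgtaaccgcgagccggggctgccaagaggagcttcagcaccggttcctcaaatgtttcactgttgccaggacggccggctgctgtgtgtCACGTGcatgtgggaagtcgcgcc
Ltbr: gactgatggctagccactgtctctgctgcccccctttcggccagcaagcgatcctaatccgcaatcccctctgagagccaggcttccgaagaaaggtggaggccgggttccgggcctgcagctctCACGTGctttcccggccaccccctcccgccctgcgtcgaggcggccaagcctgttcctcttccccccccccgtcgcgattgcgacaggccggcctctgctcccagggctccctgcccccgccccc
Il18rap: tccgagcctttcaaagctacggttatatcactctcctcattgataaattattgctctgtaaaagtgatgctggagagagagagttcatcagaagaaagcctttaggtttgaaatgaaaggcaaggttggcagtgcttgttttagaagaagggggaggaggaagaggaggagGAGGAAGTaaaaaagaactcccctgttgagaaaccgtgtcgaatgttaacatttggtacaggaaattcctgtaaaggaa
Il1rn: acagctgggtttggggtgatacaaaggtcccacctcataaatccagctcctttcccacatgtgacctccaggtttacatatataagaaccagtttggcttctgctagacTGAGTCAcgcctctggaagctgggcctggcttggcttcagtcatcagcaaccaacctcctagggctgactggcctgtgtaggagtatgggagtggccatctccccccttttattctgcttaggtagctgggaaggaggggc

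Windows were found for 70 of the 89 members (86 starts) and, among members at 10 CPM or more, for 14 of 17. On either strand, CACGTG was in 5.81% of the members' windows and in 6.02% of all 32851 windows, a share near the background. GAGGAAGT was in 3.49% against 2.44%, the motif of interferon regulatory factors (GAAA, then GAAA again with 2 bases of any kind between) in 5.81% against 2.98%, and TGANTCA in 15.1% against 6.75%. The members with TGANTCA were 13 genes, of which only Il16 was at 10 CPM or more and Il1a and Il6 had 1 count each. These shares describe letters in the windows and say nothing of binding.

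The genes that carry these receptors' signals had list medians of 11.2 CPM (IL-1 and TNF signalling) and 10.1 CPM (JAK and STAT signalling), without division by length. Medians were 3.67 CPM for interleukin receptors, 1.53 CPM for TNF receptors, 0.680 CPM for all members with their ligands and decoys, and 2.03 CPM over all rows. Of 40 genes of IL-1 and TNF receptor signalling, 23 reached 10 CPM. Rbck1 (52.8 CPM), part of the linear ubiquitin ligase, Nfkbib (52.0 CPM), an inhibitor of NF-kB, and the kinase gene Irak1 (50.9 CPM) led. The adaptor Myd88 was at 40.5 CPM, Rela at 34.8 CPM and Ripk1 at 24.8 CPM, but Tnfaip3, which ends NF-kB signalling, was at 0.605 CPM and Traf1 had 9 counts. Of 29 genes of JAK and STAT signalling, 15 reached 10 CPM, led by the phosphatase Ptpn6 (288 CPM), the kinase Jak1 (62.6 CPM) and the phosphatase Ptpn1 (62.1 CPM). Stat6 was at 38.1 CPM and Stat3 at 33.1 CPM, whereas Stat4, Socs2 and Cish had 12, 14 and 9 counts. Of 18 genes that process cytokines, 11 reached 10 CPM, among them the inflammasome adaptor Pycard (391 CPM), Txnip (120 CPM), the granule protease Prtn3 (96.3 CPM), Casp1 (33.1 CPM), which cleaves the IL-18 precursor, and Adam17 (33.1 CPM), which sheds TNF and its receptors. Of 33 relatives under other symbols 23 had a row and 7 reached 10 CPM, with Csf2rb, Tgfb1 (54.6 CPM) and Ifngr2 (48.0 CPM) highest. The ligand genes Cd40lg, Fasl, Cd70 and Ifng had no row.

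At several places members that lie side by side in the genome differed widely in level, and neighbours among other genes were not compared. With neighbours joined across up to 200000 bases, 37 members fell into 14 loci. On chr1:40074079-40551705 the 6 genes from Il1r2 to Il18rap ran from 1 count (Il18r1) to 9.87 CPM (Il18rap), although these 2 genes are neighbours on the same strand. On chr6:125232622-125362484 Ltbr and Tnfrsf1a stood beside Cd27 at 0.686 CPM. On chr13:112464070-112594360 both genes, Il6st and Il31ra, reached 10 CPM, the only locus where all members did. In the TNF locus on chr17:35194439-35205351 Tnf (4.83 CPM) was flanked by Ltb (1.16 CPM) and Lta (0.224 CPM). On chr2:129299610-129375748 Il1a, Il1b and the antisense gene Il1bos had 1 count each. On chr11:69682138-69695849 Tnfsf12 and Tnfsf13 overlap the antisense gene Tnfsf13os and the read-through gene Tnfsfm13, so their split is uncertain.

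Cells were then parted into 9 clusters from genes outside the members and the signalling lists, so that no member shaped them directly. They are parts of 1 library, and genes that vary together with members remained in. Cluster 1 (1399 cells) was led by Ms4a7, Folr2 and Fcgr4, cluster 2 (1393 cells) by Ly6c2, Prtn3 and Ccr2, cluster 3 (1060 cells) by histone genes and Top2a, cluster 5 (730 cells) by the histone genes Hist1h4h and Hist1h4d, cluster 6 (562 cells) by Malat1, Neat1 and Pde4d, and cluster 7 (306 cells) by Camk1d and Tmtc2. Clusters 4 (1013 cells) and 8 (264 cells) were shallow, with medians of 2754 and 2170.5 counts against 14369.5 or more in these 6, and cluster 9 held 24 cells. No cluster had a fibroblast or T and NK marker counted in 10% of its cells, and each had at least 13 of the 20 macrophage markers. In the 24 cells of cluster 9 that share is only a few cells. The summed macrophage markers were lowest in cluster 9 (2030 CPM against 14427 CPM in the other cells) and cluster 8 (5910 against 14462 CPM).

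Few of the 17 members at 10 CPM or more passed the fold used when a deeper cluster was set against the rest. Each cluster was set against the remaining cells as a log2 ratio, after 1 CPM had been added to both levels. In clusters 1 to 8 none of the 17 was higher by 1 or more, while of all genes at that level 1.5%, 0.0751%, 0.706%, 0.0451%, 0.3%, 9.44%, 0.451% and 2.7% were, in that order. In clusters 1, 2, 3 and 6 none was lower by 1 or more, beside 1.82%, 2.49%, 0.255% and 0.586% of genes. Lower were Tnfrsf13b (-1.14) and Il10rb (-1.005, at the limit) in cluster 5, where 9.18% of genes were lower, and Il18 (-1.18) in cluster 7, where 2.66% were. Across the 6 deeper clusters the narrowest ranges belonged to Il2rg, from 30.5 CPM in cluster 5 to 38.8 CPM in cluster 1, Ltbr, from 28.3 to 37.1 CPM, and Tnfrsf1a, from 26.4 to 37.2 CPM. The call of Il10rb was lost under 6 of 7 alternatives, and that of Il18 could not be followed in the other clusterings, where the nearest cluster shared between 0.153 and 0.392 of the cells in either one. Tnfrsf13b was just within the fold (-0.996) with ribosomal and mitochondrial rows out of the total. With 10 CPM added in place of 1, all 3 ratios were within the fold, and Tnfrsf13b was at -0.69.

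**Figure D2:**
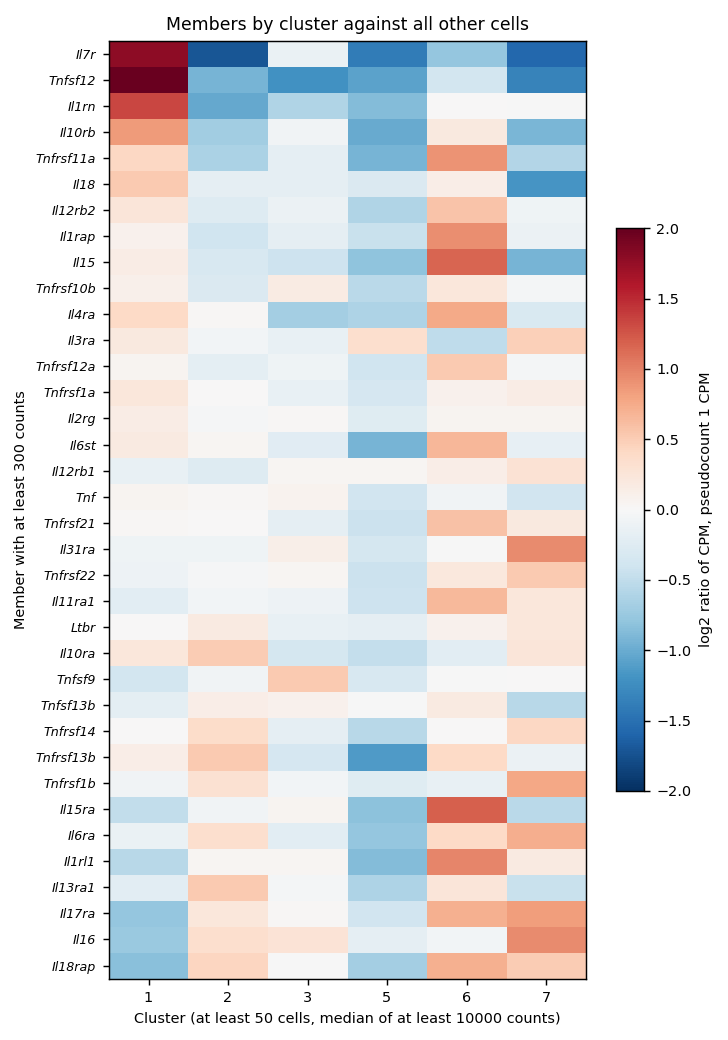
Log2 ratio (pseudocount 1 CPM) of each of the 6 deeper clusters to the remaining cells for members with at least 300 counts, red for higher and blue for lower. Most cells of the grid are pale, and the strongest colours lie with Il7r, Tnfsf12 and Il1rn, high in cluster 1 and low in several others.

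Members with at least 300 counts but below 10 CPM, examined after their values had been seen, differed more. In cluster 1, 3 of 19 were higher by 1 or more, where 2.53% of genes in that range were. Tnfsf12 was at 18.1 CPM (16.8 to 19.5) in cluster 1 and between 2.40 and 5.75 CPM in the other deeper clusters. Il7r, which is known as a receptor of lymphocytes and of macrophage precursors, was at 13.2 CPM (12.1 to 14.4) in cluster 1, 5.17 CPM (4.52 to 5.88) in cluster 3 and 1.30 CPM (0.913 to 1.80) in cluster 2. Il1rn was at 4.39 CPM (3.76 to 5.09) in cluster 1 and 0.579 CPM (0.331 to 0.940) in cluster 2. For all 3 genes the interval of cluster 1 lay above those of the other 5 clusters. These intervals do not cover the uneven counts of the 3 genes over cells, described further on. At the finer resolution of 0.8 the nearest cluster was not a close match, as 0.426 of the cells in either of the pair were in both, and there the log2 ratio went from 1.79 to 0.50 for Il7r and from 1.34 to 0.31 for Il1rn, while that of Tnfsf12 went from 1.97 to 1.21. With 10 CPM added in place of 1, Tnfsf12 alone of the 3 stayed past the fold, at 1.02.

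In cluster 2, Il7r (-1.71) and Il1rn (-1.03) were the 2 lower members of that range, where 4.45% of genes were lower, in cluster 3 it was Tnfsf12 (-1.21, with 1.23% of genes lower), in cluster 5 Il7r (-1.41) and Tnfsf12 (-1.07, with 10.7% lower) and in cluster 7 Il7r (-1.58) and Tnfsf12 (-1.34, with 4.62% lower). Cluster 6 had Il15ra (1.19) and Il15 (1.16) higher, the receptor at 11.6 CPM (10.2 to 13.2) and its ligand at 7.79 CPM (6.66 to 9.06). There 21.1% of genes in that range were higher and the median over all of them was 0.49, so the pair did not stand out from the cluster as a whole. Set directly against cluster 2, cluster 1 was higher in Il10rb (1.18, with 37.2 against 15.9 CPM, 2.81% of genes higher and 0.331% lower) and in Il7r, Tnfsf12 and Il1rn (2.62, 1.99 and 1.77, with 4.88% higher), and lower in Il18rap (-1.01, with 5.86 against 12.8 CPM and 0.948% lower).

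**Figure D3:**
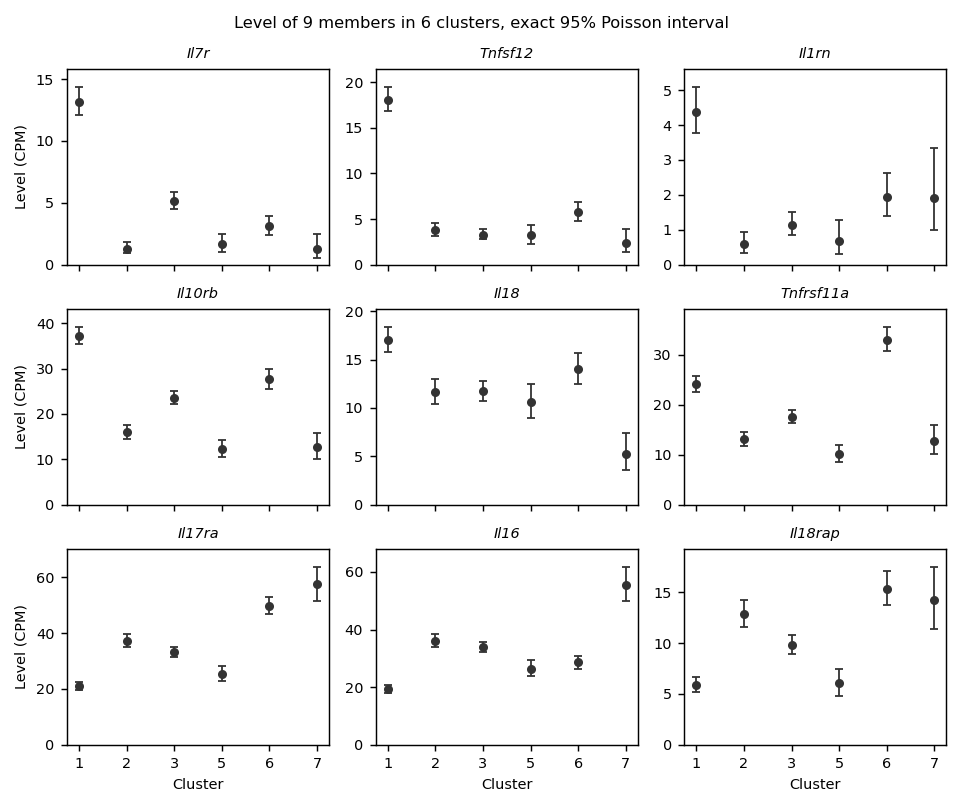
Levels in CPM of 9 members in the 6 deeper clusters, points for the level over all cells of a cluster and bars for the exact 95% Poisson interval, each panel with its own axis from 0. Il7r, Tnfsf12 and Il1rn peak in cluster 1, Tnfrsf11a in cluster 6, and Il17ra and Il16 in cluster 7.

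Levels were also compared between the 6 deeper clusters themselves. For 9 of the 17 members the highest of these clusters stood 2.48 to 3.25 times above the lowest, with separate intervals, and of all genes at 10 CPM or more 43.6% had such a ratio of 2 or more. Tnfrsf11a ran from 10.2 CPM (8.55 to 12.04) in cluster 5 to 33.1 CPM (30.7 to 35.6) in cluster 6. Among the same 6 clusters Il17ra ran from 21.1 CPM (19.7 to 22.5) in cluster 1 to 57.5 CPM (51.7 to 63.8) in cluster 7, and Il16 from 19.4 CPM (18.0 to 20.8) to 55.6 CPM (49.9 to 61.7) in the same 2 clusters. Il6ra was also highest in cluster 7, at 63.4 CPM (57.3 to 70.0), and Il6st in cluster 6, at 53.2 CPM (50.1 to 56.3), so the 2 chains of the IL-6 receptor peaked in different clusters. Cluster 5 was the lowest of the 6 for 24 of the 36 members with at least 300 counts and for 52.4% of all such genes, and the median log2 ratio of all genes at 10 CPM or more there was -0.38.

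In the shallow or small clusters the counts were few. Cluster 4 had 1 of the 17 members lower (Tnfrsf13b, -1.03, with 13.8% of genes lower) and cluster 8 had 10 (with 12.1% lower), Il17ra among them with 1 count. The 264 cells of cluster 8 held 827444 counts. In cluster 9, 3 of the 17 were higher and 7 lower, beside 10.1% and 52.6% of genes. Its 24 cells held 24 counts of Tnf, found in 9 cells and at most 5 in a cell, which is 204 CPM (131 to 303) against 4.69 CPM in all other cells. Cluster 9 was led by Gm26917, Malat1 and mt-Nd5 and its median depth was 4666.5 counts, and the part of these in the Tnf level was not tested. In the 6 deeper clusters Tnf was even, from 3.51 CPM in cluster 7 to 5.04 CPM in cluster 3.

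Whether chains of one receptor, or the 2 separate receptors for TNF, were counted in the same cells was examined at 10000 counts per cell. A count for Il6st was found in 29.8% (27.3 to 32.3) of cells with Il6ra and in 25.9% (24.3 to 27.5) of cells without. Tnfrsf1b was counted in 25.4% (22.9 to 28.0) of cells with Tnfrsf1a and in 21.3% (19.9 to 22.8) of cells without. Csf2rb was counted in 54.2% (50.04 to 58.2) of cells with Il3ra and in 51.0% (49.4 to 52.7) of cells without. Over all cells the differences were between 3.13 and 4.05 percentage points. The intervals were barely separate for Tnfrsf1a and Tnfrsf1b, at 22.9% against 22.8%, and overlapped for Il6ra and Il6st, at 27.3% against 27.5%, and for Il3ra and Csf2rb. Within single clusters the difference for Il3ra and Csf2rb was -13.6 points in cluster 6 and -2.47 in cluster 5, and that for Il6ra and Il6st was -0.443 in cluster 6 and 0 in cluster 7.

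Of the pairs with a lower chain, added after their values had been seen, Il10rb was counted in 25.0% (20.6 to 29.8) of cells with Il10ra against 19.0% (17.8 to 20.3) of cells without, and Il2rg in 34.1% (27.2 to 41.4) of cells with Il7r against 26.5% (25.1 to 27.9). The intervals of the first pair were barely separate and those of the second overlapped. Il2rg with Il4ra (28.8% against 26.6%) or with Il15ra (29.4% against 26.7%) and Il13ra1 with Il4ra (6.72% against 6.55%) had overlapping intervals. At 20000 counts per cell the differences for Il10ra and Il10rb, Il4ra and Il13ra1, and Il15ra and Il2rg changed sign. Those for Tnfrsf1a and Tnfrsf1b, Il3ra and Csf2rb, and Il7r and Il2rg were 1.32, 0.751 and 1.74 points with overlapping intervals. For Il6ra and Il6st and for Il4ra and Il2rg they were 3.15 and 4.55 points, also with overlapping intervals. Without thinning the difference for Il6ra and Il6st was 32.9 points, a value in which the depth of the cells was not made equal.

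**Figure D4:**
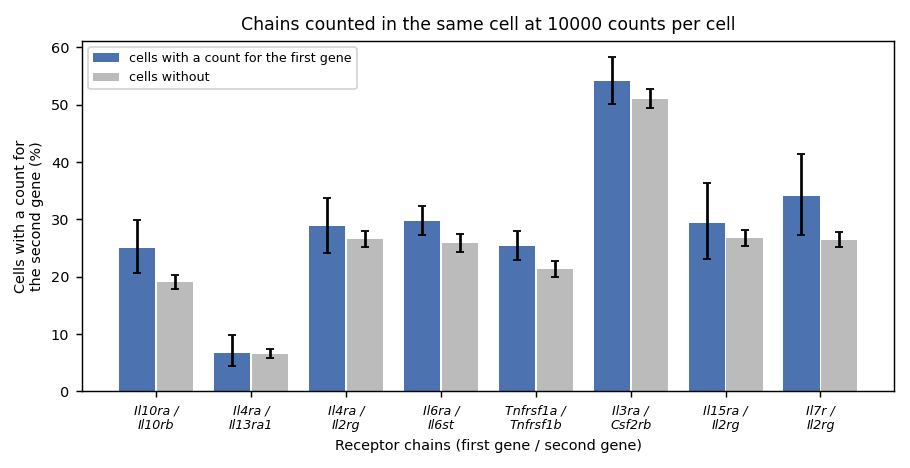
Share of cells with a count for the second gene of a pair, in percent, among cells with a count for the first gene (blue) and among those without (grey), at 10000 counts per cell, with exact 95% intervals. The blue bar is the taller in each of the 8 pairs, by 0.172 to 7.58 points, and most intervals overlap.

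Cells with a count of Tnf carried more of some inflammatory transcripts. At 10000 counts per cell, 174 cells had a Tnf count and 4138 had none. The list of 24 genes known to respond to NF-kB was chosen with earlier results of these data known. Of these 24, 5 were higher by a log2 ratio of 1 or more and none was lower by 1. Of the 13 listed genes at 10 CPM or more 12 were above 0, beside 57.8% of all genes at that level. Of all genes at that level 0.03% were higher by 1 or more, namely the chemokine gene Ccl4 (1.17, with 81.6 CPM, 68.7 to 96.2, against 35.8 CPM, 34.0 to 37.7) and the NF-kB inhibitor gene Nfkbia (1.03, with 64.4 CPM, 53.0 to 77.5, against 31.0 CPM, 29.3 to 32.7), both on the list. The other 3 were among the 8 listed genes below 10 CPM with at least 50 counts over the library, a range chosen after the values had been seen, in which 1.31% of all genes were higher by 1 or more. Cxcl2 had 9 counts in Tnf cells and 12 in the others (5.17 against 0.290 CPM), Cxcl10 19 and 113 counts (10.9 against 2.73 CPM) and Tnfaip3 5 and 28 counts (2.87 against 0.677 CPM). These 3 ratios rest on few cells. At this depth Cxcl2 was counted in 0.255% of all cells, Cxcl10 in 0.673% and Tnfaip3 in 0.696%. The list's median log2 ratio was 0.23, beside 0.04 over all genes at 10 CPM or more. None of the 17 members passed the fold in either direction, and 0.12% of genes were lower. At 20000 counts per cell 2 of the 24 passed, Cxcl2 (2.90) and Cxcl10 (1.24), and with 10 CPM added in place of 1 none of the 24 did. Of the 13 listed genes at 10 CPM or more, Icam1 (-0.037), Sod2 (-0.059) and Bcl2a1b (-0.063) were below 0 at 20000 counts, and the rest were above.

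The spread of counts over cells was compared at equal depth. At 10000 counts per cell the variance of the counts divided by their mean, which is 1 for counts that follow a Poisson distribution, was 1.2 or more for 9 of the 38 members with at least 200 counts, beside 20% of all such genes. Its median was 1.13 over all genes at 10 CPM or more. Il1rn was highest at 2.04, followed by Tnfsf12 (1.52), Il16 (1.49), Il7r (1.38) and Il17ra (1.32). Before thinning 1 cell held 26 of the 311 counts of Il1rn and 1 cell 25 counts of Il16. Tnfrsf1a (1.03), Il18 (1.04) and Il3ra (1.04) lay near 1, and Il2 was lowest at 0.984.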

How the data were processed

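The 2 labelled libraries of induced macrophages, cDNA and oligo, share 1 matrix of single-cell counts. The deposited matrix lists raw counts, a whole number for each gene in each barcode, and PISA 0.12 wrote it, per the file headers. Cell Ranger and mm10 are named without a role, per the submitters' processing notes. The sources used here do not give the annotation, strand, cell calling or whether unique molecules were counted, and counts of reads would make the intervals too narrow.

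Cells were kept with 500 or more genes and no more than 15% of counts from mitochondrial genes. Doublets were not called, and leaving out the deepest 5% of cells was an alternative. For levels, counts were added up over cells and given as CPM with exact Poisson intervals, and shares have exact Clopper-Pearson intervals (95%). Clusters came from the Leiden algorithm (scanpy 1.11.5, igraph 0.11.9), with 2000 variable genes, 30 principal components, 15 neighbours and resolution 0.5, without the 89 members and 128 list genes. Poisson counts of 20034 genes were simulated at the depth of cluster 1, with a subset of genes at 10 CPM or more changed 2-fold or 4-fold. After the median ratio of unchanged genes at that level was subtracted, the changed genes had median log2 ratios of 0.99 and 1.97. The simulation held no further spread between cells, and the ratios of the real clusters had no such subtraction. Coordinates and exon lengths are from GENCODE M21, promoters from RefSeq. Named are all members at 10 CPM or more, the 3 highest of each role, the ligands of named receptors, members past the fold and the 3 highest genes of each list. Further low members, signalling genes of known role and Il2 were named after their values were seen, as were the loci, the unevenness, the promoters and the motifs chosen. The members and lists were chosen with earlier results of these data known.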

Additional observations from a re-analysis of the deposited data

How the results depend on the processing

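No paired analysis was made, as the matrix gives no library for a barcode and nothing was compared between the libraries. The count of 17 members at 10 CPM or more stayed between 17 and 22 under other cell filters, weights and totals, and became 24 at 5 CPM and 0 at 50 CPM. Members counted in at least 5% of cells were 22 at 10000 counts per cell, 8 at 2000 and 32 at 20000. The share of all rows was 40.7% at 10000 counts and was not computed at the other depths. Over the 9 clusters and the 17 members at 10 CPM or more, 21 pairs of member and cluster were lower past the fold and 3 higher. Of the lower pairs 10 were in cluster 8 and 7 in cluster 9, where 12.1% and 52.6% of all genes at that level were lower. All 3 higher pairs were in cluster 9, where 10.1% of genes were higher. With resolution 0.3 the lower ones were 10, with a pseudocount of 10 CPM 10 and 1 higher, and without clusters 4, 8 and 9 they were 3 and 0. With ribosomal and mitochondrial rows out of the total 9 were higher. Shares of all genes were not computed for these alternatives. Of the 24 NF-kB response genes 5 passed in Tnf cells, 2 at 20000 counts and 0 with a pseudocount of 10 CPM. At 20000 counts the differences between cells with and without the first chain stayed above 0 for most pairs. The others were -0.360 points for Il10ra and Il10rb, -3.36 for Il4ra and Il13ra1 and -0.579 for Il15ra and Il2rg. The cause of these changes was not tested. With 1 sample there is no replicate, so differences between samples cannot be gauged. Depth limits members with few counts: 46 of 89 were below 1 CPM, beside 9092 of all 20034 rows.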
